A study of Mus musculus with 8 samples.

Results

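The unfolded protein response is followed here through 10 genes in the bone marrow of leukaemic mice. The genes are Hspa5, Hsp90b1, Calr, Pdia4, Sdf2l1, Xbp1, Dnajb9, Herpud1, Atf4 and Ddit3, taken by symbol from a table of 18020 rows. All 10 were present, and all 10 passed the filter on low values (mean of 0.5 FPKM or more), which left 12061 genes to test. FPKM counts sequenced fragments per transcript length and per size of the library, so levels of different genes can be set side by side per length. The marrow came from 8 mice that had received B cells transformed by BCR-ABL1, the fusion kinase found in some acute lymphoblastic leukaemias of B cells. In KO_LPS (n = 3) the transplanted cells lacked Aid and were treated with lipopolysaccharide (LPS), a bacterial cell wall component. In WT_LPS (n = 3) the cells had intact Aid and were treated with LPS, and in WT_PBS (n = 2) they had intact Aid and were treated with phosphate-buffered saline, the vehicle. All groups shared the BCR-ABL1 transformation. The series' title puts the question as one of inflammation, Aid and the development of this leukaemia. The labels give neither the dose nor the length of treatment, and they do not name the Aid allele. Aid-deficient cells given vehicle were not analysed here. Whatever else set the Aid-deficient cultures apart cannot be told apart from Aid. Separate cultures behind the mice of a group are not stated, so a p-value here reflects just the scatter among these libraries, and that scatter may be technical.

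The endoplasmic reticulum folds secreted and membrane proteins, and unfolded protein there is sensed by IRE1, PERK and ATF6. IRE1 splices Xbp1 mRNA into the form that encodes an active transcription factor, PERK slows translation but favours that of Atf4 mRNA, and ATF6 is cleaved to free a factor that acts on chaperone genes. Cells of the B lineage need this response most when they become antibody-secreting plasma cells, and Xbp1 is required for that step. The response raises the chaperones and foldases Hspa5 (BiP), Hsp90b1 (GRP94), Calr (calreticulin), Pdia4 and the BiP cofactor Sdf2l1. It also raises Dnajb9 (ERdj4), a co-chaperone that with BiP restrains IRE1, and Herpud1, a part of the machinery that passes misfolded proteins to the proteasome. ATF4 activates amino acid and redox genes and Ddit3, which encodes CHOP, a factor linked to cell death under lasting stress.

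The promoters of 4 members are shown because they held matches to motifs of the response. Of these, Hspa5, Hsp90b1 and Calr varied together in the data while Herpud1 ran against them. Sdf2l1, Pdia4 and Xbp1 also varied with Hspa5 and held no match, and a relation of motifs to levels was not tested. They are the 250 bases before the annotated start from RefSeq, build GRCm38.p6, in the direction of the gene, with the matched bases in capitals. Hspa5 lies on the plus strand (chr2:34771840-34772089), Hsp90b1 on the minus strand (chr10:86705445-86705694), Calr on the minus strand (chr8:84846932-84847181) and Herpud1 on the plus strand (chr8:94386179-94386428).
Hspa5: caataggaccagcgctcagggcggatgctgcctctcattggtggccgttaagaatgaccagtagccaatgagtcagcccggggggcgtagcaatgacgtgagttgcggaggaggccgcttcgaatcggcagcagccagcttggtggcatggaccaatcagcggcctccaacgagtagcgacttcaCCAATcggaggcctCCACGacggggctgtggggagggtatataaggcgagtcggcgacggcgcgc
Hsp90b1: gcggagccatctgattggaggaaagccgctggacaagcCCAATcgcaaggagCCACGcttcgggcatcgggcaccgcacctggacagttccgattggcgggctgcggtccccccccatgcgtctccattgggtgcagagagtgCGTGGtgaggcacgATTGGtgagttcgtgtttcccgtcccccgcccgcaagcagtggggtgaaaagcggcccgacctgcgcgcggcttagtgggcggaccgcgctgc
Calr: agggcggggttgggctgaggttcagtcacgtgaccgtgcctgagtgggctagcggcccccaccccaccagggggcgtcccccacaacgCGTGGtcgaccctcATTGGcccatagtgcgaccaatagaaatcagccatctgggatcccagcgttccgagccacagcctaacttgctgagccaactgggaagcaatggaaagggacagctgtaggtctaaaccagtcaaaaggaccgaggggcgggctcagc
Herpud1: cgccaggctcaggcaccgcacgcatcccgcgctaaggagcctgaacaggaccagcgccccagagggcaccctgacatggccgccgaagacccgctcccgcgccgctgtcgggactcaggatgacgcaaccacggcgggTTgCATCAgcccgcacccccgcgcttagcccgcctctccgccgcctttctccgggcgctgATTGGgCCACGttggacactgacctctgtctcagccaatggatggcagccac
The capitals in Hspa5, Hsp90b1 and Calr mark the ends of the ER stress response element, CCAAT and CCACG separated by 9 bases of any kind, or of its reverse complement. Those in Herpud1 mark the second form of that element, ATTGG and CCACG separated by 1 base of any kind, and on the opposite strand the C/EBP-ATF response element, TGATGNAA, a site type bound by ATF4 with a C/EBP partner.

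All 10 members had a promoter in the RefSeq table, and windows from 250 bases before to 50 bases after the start were searched on both strands. The first form of the ER stress response element matched in 3 members, and in 39 of 32851 promoters in the table (0.119%). Hspa5 held 1 match, from -65 to -47 relative to the start. Hsp90b1 held 2, from -212 to -194 and, on the opposite strand, from -107 to -89. Calr held 1, on the opposite strand from -162 to -144. The second form matched in Herpud1, from -52 to -42, and in 12 promoters of the table (0.0365%). The C/EBP-ATF element matched in Herpud1, from -112 to -105, and in 1304 promoters (3.97%). The unfolded protein response element TGACGTGG was in 222 promoters (0.676%) and in 0 of the 10 members. The 2 forms of the ER stress response element share the letters CCACG, and no matches within a member overlapped. The windows of Pdia4, Sdf2l1, Xbp1, Dnajb9, Atf4 and Ddit3 held none of the 4 motifs as spelled.

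**Figure D1:**
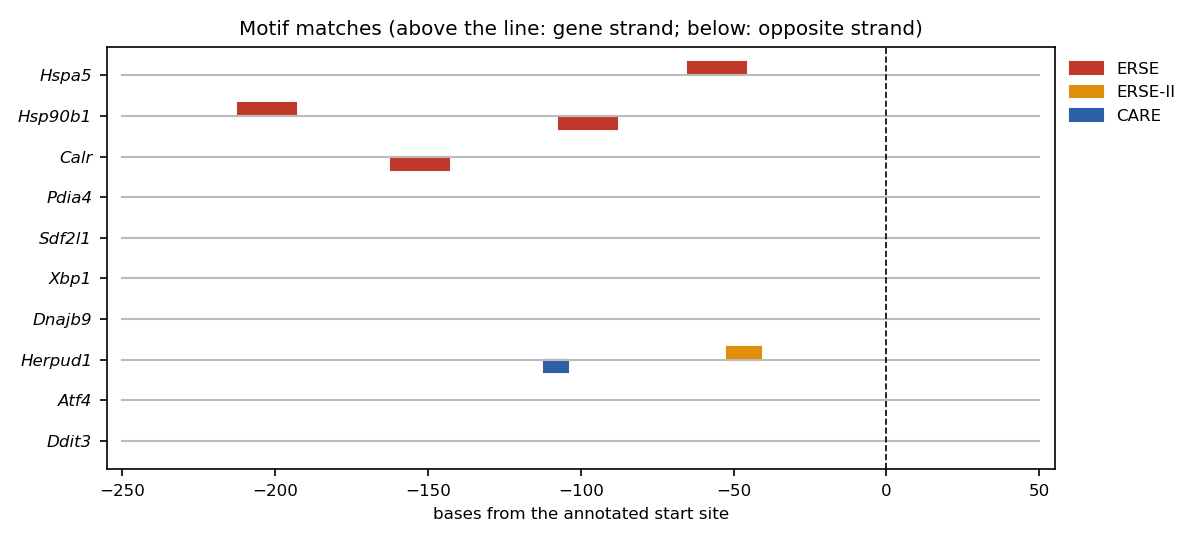
Matches to the motifs in the window of each member, by distance in bases from the annotated start (dashed line), with matches on the gene's strand above the line and on the opposite strand below it. Hspa5, Hsp90b1 and Calr carry the ER stress response element (ERSE), and Herpud1 carries its second form (ERSE-II) and the C/EBP-ATF response element (CARE).

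The labels call the cells B lymphocytes of bone marrow. The 10 B-lineage markers summed to 5336.8 to 7878.6 FPKM in KO_LPS, 5348.1 to 6604.0 FPKM in WT_LPS and 5422.2 to 6174.6 FPKM in WT_PBS, so leukaemia or other B-lineage RNA was plentiful in every library. RNA of other marrow cells was present too, since 10 neutrophil markers summed to 5566 to 14197 FPKM, 8627.1 to 28106.1 FPKM and 12124.3 to 15432.3 FPKM in the same order of groups. In bulk RNA, fewer cells of a type and less RNA per cell cannot be told apart. Of 10 plasma cell markers, which sit with high unfolded protein response activity in normal B cells, Tnfrsf17 and Prdm1 were under 1 FPKM in every library, whereas Sdc1 had 12.1 to 21.87 FPKM, Jchain 12.73 to 34.13 FPKM, Irf4 16.8 to 39.19 FPKM and Mzb1 276.74 to 405.54 FPKM. The 10 summed to 665.2 to 669.9 FPKM in KO_LPS, 636.5 to 714.6 FPKM in WT_LPS and 554.8 to 619.7 FPKM in WT_PBS. Most of each sum was Mzb1 and Pou2af1 (188.6 to 225.98 FPKM), so the sums mainly follow these genes and do not measure plasma cell content. Library totals ranged from 606576 to 700238 FPKM. The libraries also carry numbers in their titles, 2, 5 and 8 in KO_LPS, 6, 40 and 100 in WT_LPS and 1 and 7 in WT_PBS, given here as replicates 1 to 3 or 1 to 2 in that order. The titles do not say what the numbers stand for.

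The chaperones and foldases were among the abundant members, and each differed between libraries inside every group. Hspa5 (gene 14828, chr2:34772090-34776529), the central chaperone and sensor partner, had 146.09, 136.76 and 206.34 FPKM in KO_LPS, 101.84, 276.52 and 155.75 FPKM in WT_LPS, and 153.04 and 302.03 FPKM in WT_PBS. The highest 2 libraries were replicate 2 of WT_PBS and replicate 2 of WT_LPS, the lowest was replicate 1 of WT_LPS, and the 3 groups overlapped. The highest library held 2.97 times the lowest, and the means were 163 ± 37.8 FPKM in KO_LPS, 178 ± 89.4 FPKM in WT_LPS (SD, n = 3 each) and 228 ± 105 FPKM in WT_PBS (SD, n = 2). Hsp90b1 (gene 22027, chr10:86690841-86705444), the ER member of the HSP90 family, had 136.55, 117.65 and 205.51 FPKM in KO_LPS, 125.47, 224.76 and 162.57 FPKM in WT_LPS, and 174.70 and 226.51 FPKM in WT_PBS. Its 3 highest libraries were replicate 2 of WT_PBS, replicate 2 of WT_LPS and replicate 3 of KO_LPS. Calr (gene 12317, chr8:84842088-84846931), the lectin chaperone that binds calcium, had 330.36, 260.11 and 363.70 FPKM in KO_LPS, 287.79, 413.12 and 334.32 FPKM in WT_LPS, and 313.92 and 407.72 FPKM in WT_PBS. It had the highest mean of the 10 members and a narrow range, 1.59-fold, with the groups overlapping.

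Pdia4 (gene 12304, chr6:47796141-47813512), a protein disulfide isomerase, spread most. It had 15.50, 11.42 and 42.81 FPKM in KO_LPS, 17.74, 59.11 and 38.65 FPKM in WT_LPS, and 27.27 and 62.05 FPKM in WT_PBS. The highest library held 5.43 times the lowest, and replicates 1 and 2 of KO_LPS and replicate 1 of WT_LPS formed the low end. Sdf2l1 (gene 64136, chr16:17130138-17132383), which keeps BiP clients from aggregating, had 56.08, 46.98 and 76.86 FPKM in KO_LPS, 48.96, 105.78 and 65.13 FPKM in WT_LPS, and 56.03 and 102.81 FPKM in WT_PBS. Its highest 2 libraries were again replicate 2 of WT_LPS and replicate 2 of WT_PBS. Xbp1 (gene 22433, chr11:5520641-5525993), the transcription factor of the IRE1 arm, had 24.77, 22.63 and 59.65 FPKM in KO_LPS, 35.83, 92.16 and 59.79 FPKM in WT_LPS, and 56.45 and 103.99 FPKM in WT_PBS. KO_LPS overlapped the other groups only through its replicate 3, since its other 2 libraries were the lowest of the 8. The means were 35.7 ± 20.8 FPKM in KO_LPS, 62.6 ± 28.3 FPKM in WT_LPS (SD, n = 3 each) and 80.2 ± 33.6 FPKM in WT_PBS (SD, n = 2). A level per gene does not separate spliced from unspliced Xbp1 mRNA, so IRE1 activity was not measured.

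The other members did not share that order of libraries. Dnajb9 (gene 27362, chr12:44205897-44210068) was the lowest member by mean and the steadiest, with 7.99, 8.21 and 7.72 FPKM in KO_LPS, 6.56, 8.10 and 7.51 FPKM in WT_LPS, and 7.98 and 8.79 FPKM in WT_PBS, a 1.34-fold range. Herpud1 (gene 64209, chr8:94386429-94395371) had 191.00, 226.46 and 128.33 FPKM in KO_LPS, 247.68, 171.53 and 163.38 FPKM in WT_LPS, and 170.18 and 118.05 FPKM in WT_PBS. It was lowest in replicate 2 of WT_PBS, where Hspa5, Pdia4 and Xbp1 were highest, and highest in replicate 1 of WT_LPS, where Hspa5 was lowest. Atf4 (gene 11911, chr15:80255184-80257545) had 139.12, 179.24 and 109.34 FPKM in KO_LPS, 110.17, 166.14 and 108.74 FPKM in WT_LPS, and 110.08 and 126.82 FPKM in WT_PBS. Ddit3 (gene 13198, chr10:127290793-127296291) had 12.26, 15.40 and 10.11 FPKM in KO_LPS, 11.17, 22.46 and 9.43 FPKM in WT_LPS, and 9.53 and 13.77 FPKM in WT_PBS. Both stood highest in replicate 2 of KO_LPS and replicate 2 of WT_LPS, and the groups overlapped for both. Ordered by mean FPKM over the 8 libraries, Calr led, followed by Hspa5, Herpud1, Hsp90b1, Atf4, Sdf2l1, Xbp1, Pdia4, Ddit3 and Dnajb9. The ranges over the 8 libraries overlapped between neighbours in this order except at 2 places: Atf4 (lowest 108.74 FPKM) lay wholly above Sdf2l1 (highest 105.78 FPKM), and Ddit3 (lowest 9.43 FPKM) above Dnajb9 (highest 8.79 FPKM).

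**Figure D2:**
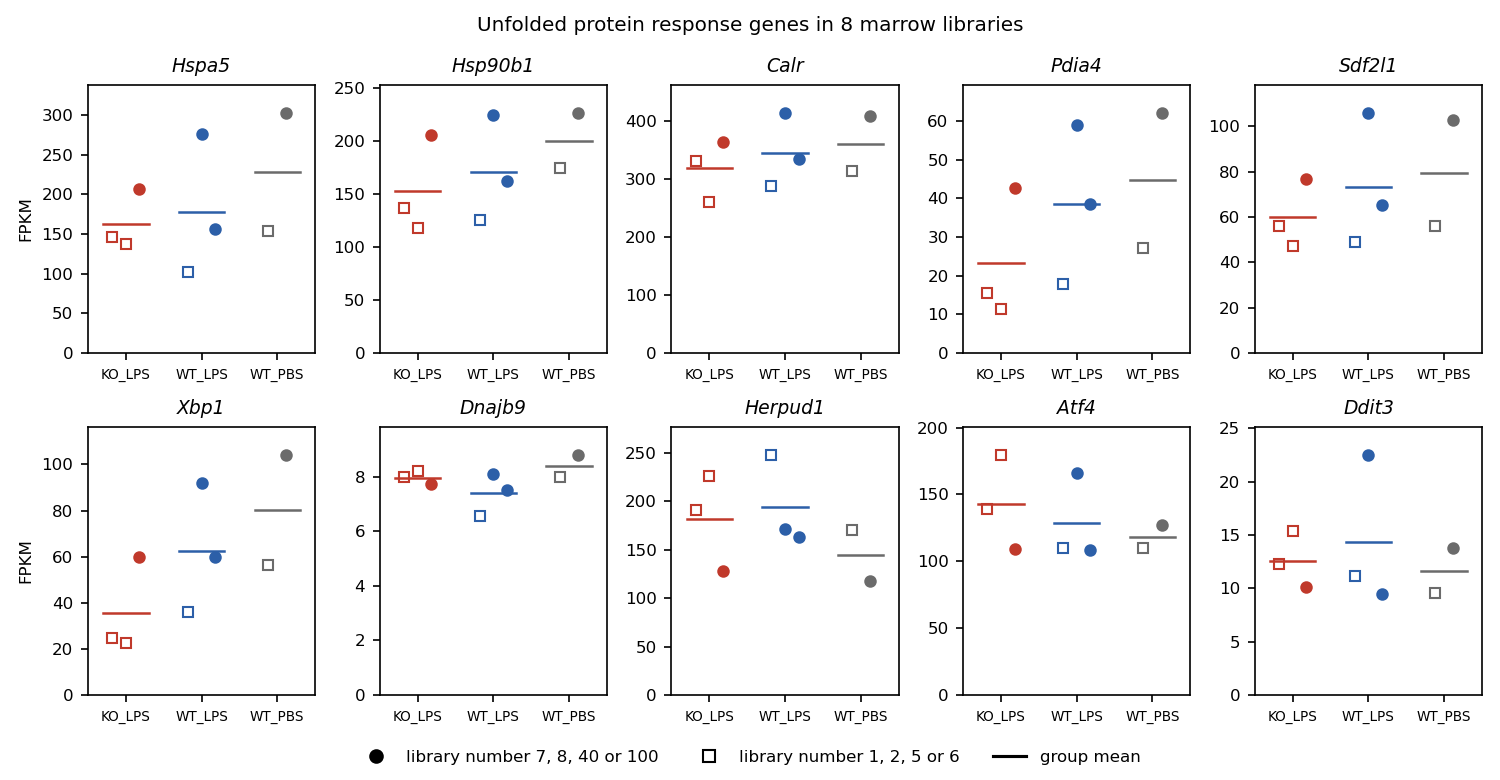
FPKM of each member in each library, by group, with the group mean as a line. Filled circles are libraries numbered 7, 8, 40 or 100 and open squares those numbered 1, 2, 5 or 6. Groups overlap for all 10 genes, and for Hspa5, Calr, Pdia4, Sdf2l1 and Xbp1 all filled circles lie above all open squares.

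The loss of Aid under LPS came with no member that passed the test. Between KO_LPS and WT_LPS, limma's test with Benjamini-Hochberg adjustment over the 12061 genes called 0 of 10 members, against 0.0829% of all genes, and 0 had an unadjusted p under 0.05. The groups overlapped for all 10, whereas 9.14% of all genes did not overlap. Xbp1 had the difference of greatest size, -0.83 in log2(FPKM + 1) (SE 0.44, 95% interval -1.84 to 0.18, limma adjusted p = 0.765). Pdia4 followed at -0.77 (SE 0.56, interval -2.05 to 0.51, limma adjusted p = 0.765). With 1 library left out Xbp1 ran from -1.265 to -0.507 and Pdia4 from -1.309 to -0.391. Both intervals include no difference as well as levels more than 2-fold lower in KO_LPS. The bounds were closest for Dnajb9, at 0.10 (interval -0.27 to 0.47), and for Calr, at -0.12 (interval -0.53 to 0.30). Hspa5 was at -0.03 (interval -0.88 to 0.82), Herpud1 at -0.11 (interval -0.67 to 0.46), Atf4 at 0.15 (interval -0.34 to 0.64) and Ddit3 at -0.10 (interval -0.82 to 0.62). Hsp90b1 was at -0.16 (interval -0.74 to 0.43) and Sdf2l1 at -0.24 (interval -0.98 to 0.49). Over the members, 2 differences were above 0 and 8 below, with a median of -0.11, and the median over all genes tested was -0.06. With limma's library weights, Xbp1 (-1.18, limma adjusted p = 0.0238) and Pdia4 (-1.27, limma adjusted p = 0.0334) were called lower. These were 2 of 10 members, where 2727 of the 12061 genes were called in either direction. In that fit replicate 3 of WT_LPS had a weight of 10.1 and the other libraries 0.246 to 1.4.

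LPS against vehicle, with Aid intact, gave no called member either. Between WT_LPS and WT_PBS, limma called 0 of 10 members and 0% of all genes, and 0 members had an unadjusted p under 0.05, against 1.18% of all genes. The groups overlapped for all 10 members, and 15.7% of all genes did not overlap. Herpud1 had the difference of greatest size, at 0.43 (SE 0.28, 95% interval -0.21 to 1.06, limma adjusted p = 0.9998). With 1 library left out it ran from 0.164 to 0.688, and Hspa5 and Xbp1 reached -0.879 and -0.824, so which member differed most depended on the libraries. Hspa5 and Xbp1 were both at -0.39, with intervals of -1.34 to 0.56 and -1.52 to 0.74. Pdia4 was at -0.25 (interval -1.68 to 1.18), Hsp90b1 at -0.26 (interval -0.92 to 0.40), Sdf2l1 at -0.12 (interval -0.95 to 0.70), and Calr at -0.07 (interval -0.53 to 0.39). Dnajb9 was at -0.17 (interval -0.58 to 0.25), Atf4 at 0.09 (interval -0.46 to 0.64) and Ddit3 at 0.21 (interval -0.60 to 1.01). The members' median was -0.14 and that of all genes -0.06, with 3 members above 0 and 7 below.

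KO_LPS against WT_PBS differs in both Aid and LPS, and it shares its libraries with the other 2 differences. Limma called 0 of 10 members, against 0.0497% of all genes, and 1 member, Xbp1, had an unadjusted p under 0.05, against 6.69% of all genes. The groups overlapped for all 10 members, and 21.5% of all genes did not overlap. The difference of Xbp1 was -1.22 (SE 0.50, 95% interval -2.35 to -0.095, limma adjusted p = 0.631), and its groups overlapped, since replicate 3 of KO_LPS had 59.65 FPKM and replicate 1 of WT_PBS 56.45 FPKM. Pdia4 was at -1.02 (interval -2.46 to 0.41, limma adjusted p = 0.631), and the remaining 8 members lay between -0.42 and 0.32. Median-ratio scaling, which centres such differences by its construction, put the median over all genes at 0.006, against -0.123 as deposited.

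The members differed in how they varied from mouse to mouse, and 5 of them had a high r with Hspa5. Pearson's r of log2(FPKM + 1) with Hspa5 over the 8 libraries was 0.958 for Sdf2l1, 0.912 for Hsp90b1, 0.899 for Calr, 0.851 for Pdia4 and 0.810 for Xbp1. Exact permutation p-values, adjusted over the 9 relations, were 0.00536, 0.00614, 0.009, 0.0181 and 0.0289 for these 5, and Spearman's rho was 0.929, 0.952, 0.929, 0.929 and 0.905, with adjusted exact p of 0.00502 for the first 4 and 0.00821 for Xbp1. Without the 2 libraries farthest from the median of Hspa5, replicate 2 of WT_LPS and replicate 2 of WT_PBS, r was 0.855, 0.826, 0.726 and 0.661 for the first 4 and 0.505 for Xbp1. Xbp1 lost its place past the threshold with median-ratio scaling (r = 0.721, adjusted exact p = 0.0613), with trends in GC content and length removed (0.723, adjusted exact p = 0.0606), and without replicate 3 of KO_LPS, replicate 2 of WT_LPS or replicate 2 of WT_PBS (0.807, 0.758 and 0.725, adjusted exact p of 0.0533, 0.0655 and 0.108). Pdia4 lost its own with the trends removed (0.773, adjusted exact p = 0.053) and without replicate 2 of WT_PBS (0.8, adjusted exact p = 0.0518). As a description of genes grouped by their r with Hspa5, r among the 15 pairs of these 6 genes ran from 0.81 to 0.977, the highest for Xbp1 with Pdia4. As a further description, r was taken on deviations from the group means. It was 0.987 for Sdf2l1, 0.914 for Hsp90b1, 0.915 for Calr, 0.907 for Pdia4 and 0.914 for Xbp1. The share of all genes with such an r was not taken on these deviations, and what carries the relations was not tested.

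Many other genes followed Hspa5 too. The median r over all genes tested was 0.333, and 14.9% had an r of at least 0.8, so only 0.497% reached the r of Sdf2l1 and 13.6% that of Xbp1. The FPKM total of a library had an r of -0.834 with Hspa5, and its part in these relations was not tested. Herpud1 ran against Hspa5, with r = -0.812 (adjusted exact p = 0.0289; rho -0.857, adjusted p = 0.0161), and without the 2 libraries r was -0.946. An r at or below that of Herpud1 was found in 3.75% of all genes. Herpud1 lost its place past the threshold with quantile normalization (r = -0.706, adjusted exact p = 0.0706). The same held with GC content and length trends removed (-0.758, adjusted exact p = 0.053). It was also lost without replicate 1 of WT_LPS or replicate 2 of WT_PBS (-0.716 and -0.705, adjusted exact p of 0.109 for both). Dnajb9 had an r of 0.724 (adjusted exact p = 0.0472) but a rho of 0.429 (adjusted p = 0.385), and quantile normalization put r at -0.37. For Ddit3 r was 0.486 (adjusted exact p = 0.251) and for Atf4 0.213 (adjusted exact p = 0.608), and both were below 0 without the 2 libraries, at -0.344 and -0.167. Ddit3 and Atf4 went together instead, with r = 0.858 (adjusted exact p = 0.0212 over 45 pairs) and rho 0.929 (adjusted exact p = 0.0126). Without replicate 2 of KO_LPS and replicate 2 of WT_LPS their r was 0.788. The share of all genes with as high an r with Atf4 was not taken, so the relation cannot be called particular to this pair. Leaving out replicate 2 of WT_PBS took the number of members past the threshold with Hspa5 to 3 of 9, against 7 with all libraries, and removal of each library's trends with GC content and length also left 3. The smallest r in size among the 7 was the 0.724 of Dnajb9, and 31.1% of all genes had an r at least that far from 0.

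**Figure D3:**
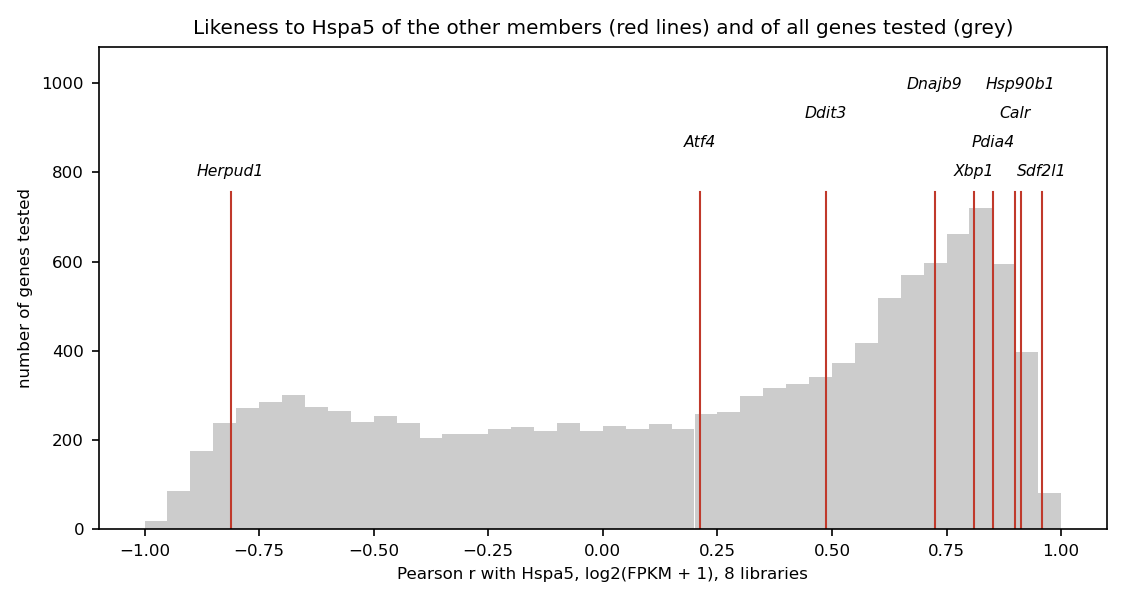
Pearson's r with Hspa5 over the 8 libraries, for the other 9 members (red lines, named) against a histogram of all genes tested (grey). Sdf2l1, Hsp90b1 and Calr lie near the upper end, Herpud1 at -0.812, and Atf4 and Ddit3 in the middle; genes of the whole table also pile up above 0.8 (14.9%).

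Among genes whose mean reached 5 FPKM, those most like Hspa5 in pattern were outside the pathway lists. Over the 8 libraries r was 0.988 for Mfsd12, 0.987 for Utp25, Naf1 and Ifi35, and 0.986 for Jmjd6. Mfsd12, a transporter of lysosomes and melanosomes, had 7.66, 6.52 and 9.0 FPKM in KO_LPS, 5.35, 11.96 and 7.03 FPKM in WT_LPS, and 7.02 and 12.29 FPKM in WT_PBS. Naf1, a factor that assembles box H/ACA RNPs, had 14.49, 13.33 and 19.24 FPKM, 10.27, 22.03 and 14.86 FPKM, and 15.15 and 22.37 FPKM in the same order of groups. Both were highest in replicate 2 of WT_PBS and replicate 2 of WT_LPS and lowest in replicate 1 of WT_LPS, the order seen in Hspa5.

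Most members also differed between libraries with higher and lower numbers in their titles, a split chosen with these results known. The values did not follow the order of the numbers themselves. Hspa5 had 302.03 FPKM in library 7 and 155.75 FPKM in library 100, close to the 153.04 FPKM of library 1. The 4 higher-numbered libraries (7, 8, 40 and 100) are replicate 2 of WT_PBS, replicate 3 of KO_LPS and replicates 2 and 3 of WT_LPS, and every group has libraries on both sides. In a fit with a term for the groups, limma called 7 of 10 members, 6 higher and 1 lower in the higher-numbered libraries, where 28.2% of all genes were called, 21.3% higher and 6.96% lower. Pdia4 averaged 50.7 ± 11.6 FPKM in the higher-numbered and 18.0 ± 6.72 FPKM in the lower-numbered libraries (SD, n = 4 each), a difference of 1.41 (SE 0.16, limma adjusted p = 0.00264). Xbp1 averaged 78.9 ± 22.7 and 34.9 ± 15.5 FPKM, in the same order of libraries, with a difference of 1.08 (SE 0.15, limma adjusted p = 0.00343), and Hspa5 235 ± 66.6 and 134 ± 22.7 FPKM with 0.83 (SE 0.17, limma adjusted p = 0.00896). Sdf2l1 rose by 0.72, Hsp90b1 by 0.57 and Calr by 0.35 in the higher-numbered libraries (limma adjusted p of 0.00974, 0.00937 and 0.0341). Herpud1 fell, with 145 ± 26.1 FPKM in the higher-numbered and 209 ± 34.8 FPKM in the lower-numbered libraries and a difference of -0.60 (SE 0.088, limma adjusted p = 0.00356). Hspa5, Calr, Pdia4, Sdf2l1 and Xbp1 did not overlap between the 2 sets of libraries, 5 of 10 and all higher, against 29.6% of all genes, 21.5% higher and 8.13% lower, whereas Hsp90b1 and Herpud1 did overlap. The differences of Atf4 (-0.03), Ddit3 (0.12) and Dnajb9 (0.09) did not pass.

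These calls ran beside a shift of the whole table, whose part in them was not tested. The median difference over all genes was 0.12 as deposited, -0.02 with median-ratio scaling and -0.01 with quantile normalization, and the share of calls that were higher was 75.4%, 49.9% and 54.1%. Of the members 6 were called with median-ratio scaling and 7 with quantile normalization. Calr was the member lost, with a difference of 0.19 and a limma adjusted p of 0.237 after median-ratio scaling, and it was also lost with GC and length trends removed (0.20, limma adjusted p = 0.147), which left 6. Its call was also lost when any of 6 libraries was left out, with limma adjusted p of 0.0707 to 0.121. That of Hsp90b1 was lost without replicate 3 of KO_LPS, at 0.51 with a limma adjusted p of 0.074. Sums of cell markers also differed between the higher-numbered and lower-numbered libraries. Erythroid markers summed to 110.2 to 209.3 FPKM in the higher-numbered and 251.8 to 896.8 FPKM in the lower-numbered libraries. In the same order, T and NK cell markers summed to 21.5 to 33.5 and 11.8 to 18.4 FPKM. B-lineage markers summed to 5336.8 to 5974.0 and 6174.6 to 7878.6 FPKM. The erythroid sum rested on the globins Hba-a1 and Hbb-bs, since 5 of the 8 genes overlapped and Tfrc had 44.58 to 63.33 FPKM in the higher-numbered and 23.37 to 49.18 FPKM in the lower-numbered libraries. The T and NK cell sum rested on Klrb1c, at 10.99 to 23.58 and 2.28 to 6.54 FPKM, and without it the sums overlapped, at 9.5 to 14.8 and 8.4 to 12.3 FPKM. Of the 8 erythroid markers, 3 were under 1 FPKM in every library, as were 2 of the 7 T and NK cell markers found. The B-lineage sum rested on Igll1, at 1524.96 to 1913.24 and 2245.35 to 3187.81 FPKM. Without Igll1 the B-lineage sums overlapped, at 3644.3 to 4060.8 and 3874.7 to 4690.8 FPKM. Cd79b, Ebf1 and Rag1 were higher in the higher-numbered libraries without overlap, and the other 6 of the 10 genes overlapped. The summed plasma cell markers overlapped, at 619.7 to 688.8 and 554.8 to 714.6 FPKM. Of the 10 genes 2 did not overlap, Sdc1 at 20.14 to 21.87 and 12.1 to 16.18 FPKM and Irf4 at 30.42 to 39.19 and 16.8 to 28.92 FPKM. Of the 8 that overlapped, Jchain (means of 17.7 and 28.3 FPKM), Slamf7, Ell2, Eaf2, Prdm1 and Mzb1 had lower means in the higher-numbered libraries. Tnfrsf17 and Pou2af1 had higher means there. None of the marker genes found was at 0 in every library, and the part of these cells in the members' values was not tested.

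The group differences were also taken with a term in the fit for the higher-numbered against the lower-numbered libraries, the numbers themselves not being used as values. Between KO_LPS and WT_LPS limma still called 0 of 10 members, against 0.274% of all genes, and Herpud1 (-0.31) and Xbp1 (-0.47) had unadjusted p of 0.0131 and 0.0193, 2 of 10 where 7.33% of all genes were under 0.05. Hspa5 moved to 0.25 and Hsp90b1 and Calr to 0.03 and 0.001, with limma adjusted p from 0.791 to 0.999. Between WT_LPS and WT_PBS limma called 0 of 10 members and 0% of all genes, and 5 members had an unadjusted p under 0.05, against 7.74% of all genes. Those were Herpud1 (0.53), Hsp90b1 (-0.35), Hspa5 (-0.53), Xbp1 (-0.57) and Pdia4 (-0.49), each with limma adjusted p of 0.614. Between KO_LPS and WT_PBS, 1 member was called, Xbp1, with a difference of -1.04 (limma adjusted p = 0.047), against 0.489% of all genes, and 2 members, Xbp1 and Pdia4, had an unadjusted p under 0.05, against 16.4% of all genes. These fits were chosen after the values were seen.

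**Figure D4:**
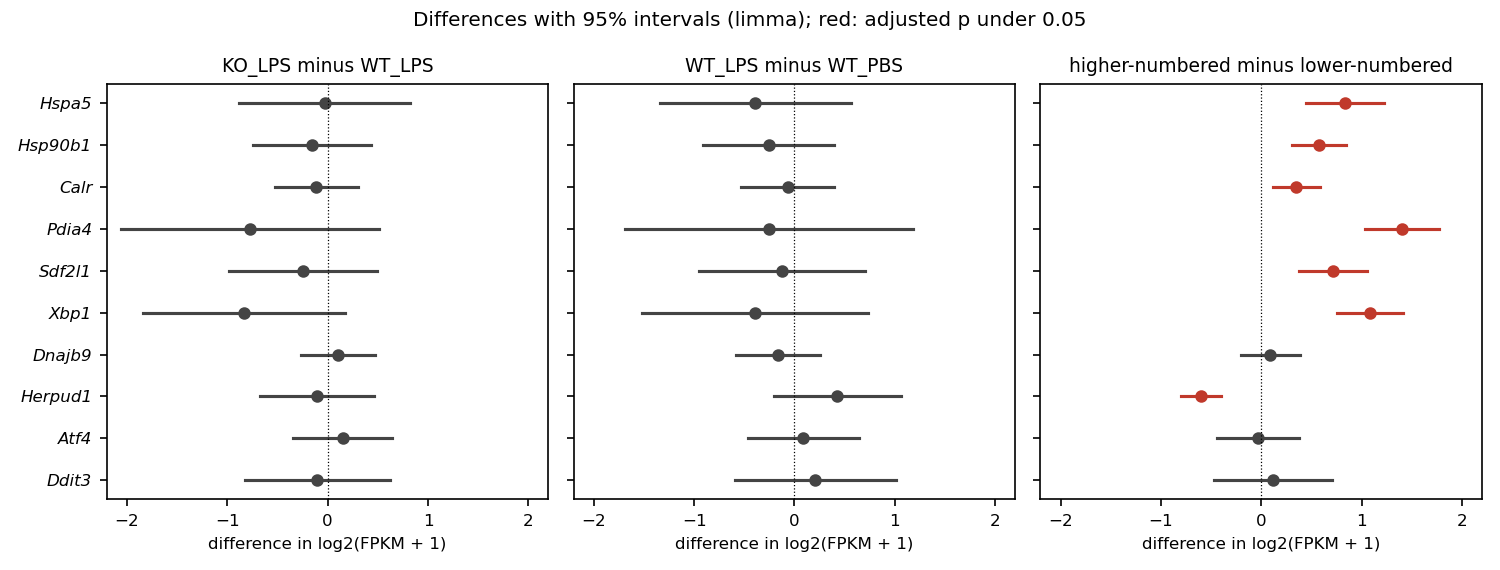
Differences in log2(FPKM + 1) of each member with 95% intervals from limma, for KO_LPS minus WT_LPS, WT_LPS minus WT_PBS and higher-numbered minus lower-numbered libraries. Intervals of the group differences all include 0, and 7 members (red) passed the adjusted threshold between the library numbers, with Herpud1 at -0.60 the lone one below 0.

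Other genes of the pathway were read from 5 lists of 109 symbols, of which 106 were tested. Between KO_LPS and WT_LPS limma called 0 of them and 3 had an unadjusted p under 0.05, against 5.69% of all genes. The groups did not overlap for 3 of the 106, a smaller share than the 9.14% of all genes. The medians were 0.10 for 14 sensors and transducers, -0.03 for 24 chaperones and foldases, 0.07 for 21 genes of ER-associated degradation, 0.09 for 19 of translocation and early transport, and -0.13 for 28 ATF4 and CHOP targets, against -0.06 for all genes. Slc7a11, the cystine transporter subunit, had 1.24, 1.22 and 0.86 FPKM in KO_LPS, 0.49, 0.38 and 0.35 FPKM in WT_LPS, and 0.35 and 0.27 FPKM in WT_PBS. All KO_LPS libraries lay above all others, yet the difference of 0.58 from WT_LPS (SE 0.15, interval 0.24 to 0.92) had a limma adjusted p of 0.502. The group means were 1.11 FPKM in KO_LPS, 0.41 FPKM in WT_LPS and 0.31 FPKM in WT_PBS. Slc7a11 thus passed the filter at a mean of 0.5 FPKM only through KO_LPS, and its levels are low. Its separation and its test therefore carry that choice and are given as a description. Eif4ebp1, the translation repressor, had 84.45, 76.59 and 86.58 FPKM in KO_LPS and 94.26, 137.20 and 94.55 FPKM in WT_LPS, which do not overlap (-0.37, unadjusted p = 0.048). Sec11c, a subunit of signal peptidase, had a difference of 0.34 (unadjusted p = 0.0389). The others with the smallest p in their lists were Eif2ak2 (0.29), which encodes the kinase PKR, Atf6 (0.28), the sensor, Erp44 (0.32), a thiol chaperone, Fkbp11 (0.38), a prolyl isomerase, Derl3 (-0.37), a degradation channel component, Ube2g2 (0.23), a ubiquitin-conjugating enzyme, and Ssr2 (0.21), a translocon-associated subunit.

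Between WT_LPS and WT_PBS limma called 0 of the 106 and 1 had an unadjusted p under 0.05, Erp29, an ER protein of the disulfide isomerase fold, where 1.18% of all genes did. Erp29 had 215.80, 186.02 and 187.94 FPKM in WT_LPS and 161.82 and 164.68 FPKM in WT_PBS (0.26, unadjusted p = 0.0496, limma adjusted p = 0.9998). The WT_LPS libraries all lay above both WT_PBS libraries. Of the 106 genes, 16 did not overlap between these groups, near the 15.7% of all genes. The medians were -0.08, -0.10, 0.02, -0.03 and 0.21 in the same order of lists, against -0.06 for all genes, and 23 of 28 ATF4 and CHOP targets were above 0, where 38.5% of all genes were. None of the 28 had an unadjusted p under 0.05 in limma, 0 were called, and that count was not tested. Phgdh, the first enzyme of serine synthesis, had 290.30, 286.57 and 265.71 FPKM in WT_LPS and 228.44 and 248.99 FPKM in WT_PBS (0.23, unadjusted p = 0.0595). Cebpb, a partner of ATF4 and CHOP, had 65.05, 41.86 and 20.79 FPKM in WT_LPS and 26.73 and 21.97 FPKM in WT_PBS, which overlap (0.65). The others named by the rule were Eif2ak2 (-0.38), Mbtps2 (-0.35), which encodes a protease that frees ATF6, Dnajc3 (-0.33), a BiP co-chaperone, Ubxn4 (-0.27) and Os9 (0.19) of the degradation machinery, Kdelr1 (0.20), a retrieval receptor, and Ssr3 (-0.17), a translocon-associated subunit.

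Of the 28 ATF4 and CHOP targets tested, 5 were highest in replicate 2 of KO_LPS, where 16.8% of all genes were, and 15 in replicate 2 of WT_LPS, where 14.0% of all genes were, a count made after values were seen. The 5 included Atf3, a stress-induced factor, with 8.54 FPKM in replicate 2 of KO_LPS and 2.97 FPKM in replicate 2 of WT_LPS, and Ddit4, an mTOR inhibitor, with 135.09 and 97.87 FPKM in the same 2 libraries. In replicate 2 of WT_LPS, where Hspa5, Atf4 and Ddit3 were also high, Trib3 and Chac1, both classical targets, stood far above the other libraries, a choice of genes made after their values were seen. Trib3, a pseudokinase, had 0.83, 1.41 and 2.08 FPKM in KO_LPS, 0.84, 7.75 and 0.94 FPKM in WT_LPS, and 0.63 and 2.39 FPKM in WT_PBS. Chac1, a glutathione-degrading enzyme, had 0.57, 1.0 and 1.36 FPKM in KO_LPS, 0.46, 7.11 and 0.98 FPKM in WT_LPS, and 0.61 and 2.19 FPKM in WT_PBS. Asns, asparagine synthetase, had 25.50, 22.31 and 18.28 FPKM in KO_LPS, 16.75, 32.07 and 14.43 FPKM in WT_LPS, and 14.01 and 15.89 FPKM in WT_PBS. All 3 were highest in replicate 2 of WT_LPS, but Asns was lower in replicate 2 of WT_PBS than in any KO_LPS library. Atf5, a factor induced with ATF4, was highest there too, at 16.93 FPKM, against 6.52 to 11.89 FPKM elsewhere. By library number, 21 of the 106 were called, 17 higher and 4 lower. That is a smaller share than the 28.2% of all genes, of which 21.3% were called higher and 6.96% lower. Of the 28 ATF4 and CHOP targets, 5 were called higher, among them Cebpg (1.62) and Mthfd2 (1.099). In the same list 2 were called lower, the pro-apoptotic Bbc3 (-1.32) and Bcl2l11 (-1.20). Of the 24 chaperones and foldases, 4 were called higher, led by Hyou1 (0.77), the BiP nucleotide exchange factor, and 1 lower, Ppib. The share called higher in either list was below that of all genes.

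**Figure D5:**
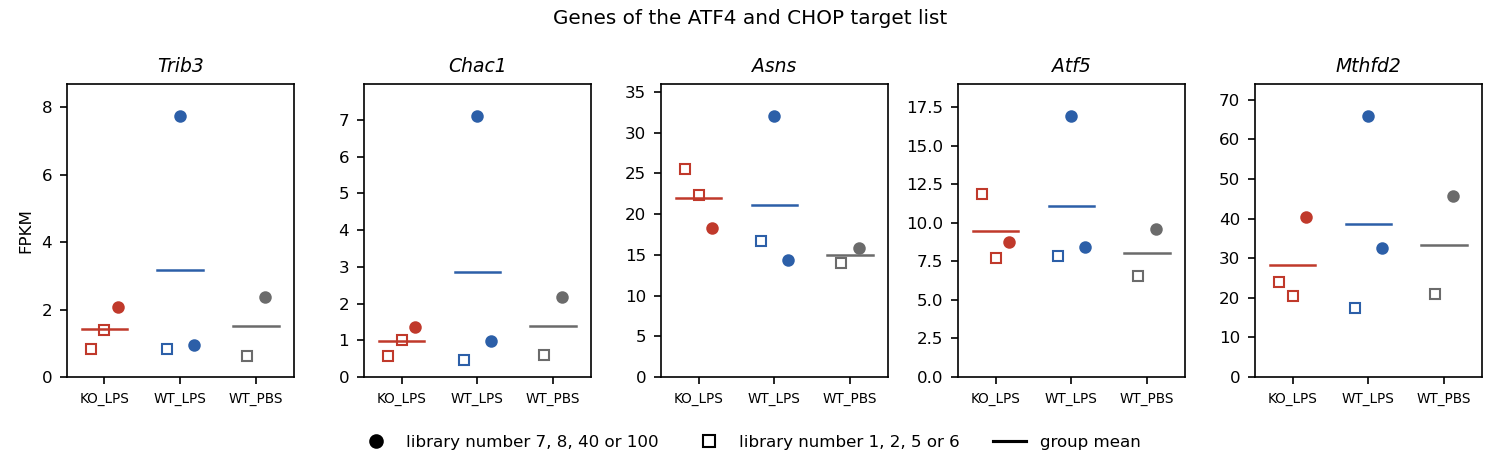
FPKM of 5 genes of the ATF4 and CHOP target list in each library, by group, with the group mean as a line and symbols by library number. Replicate 2 of WT_LPS is the highest library in all 5 panels, at 7.75 FPKM for Trib3 and 7.11 FPKM for Chac1. The 5 genes were chosen with their values known, and all are among the 15 of 28 targets that were highest in this library.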

How the data were processed

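RNA from the bone marrow of 8 mice was made into libraries with the SMARTer mRNA kit, per the labels' protocols, and sequenced. The values are FPKM as deposited by the authors, per the file headers, and the genome builds GRCm38 and mm10 come from the submitters' processing notes. Aligner and quantifier: not given in the sources used here. FPKM keeps no read counts, so no counting interval could be set and the depth behind a value is unknown. Groups were taken from the titles and characteristics. The labels give no replicate numbers, and those used here follow accession order and pair no samples. Of 18020 rows, 16798 matched a RefSeq symbol (GRCm38.p6). The highest correlation between libraries was 0.9954, and no 2 libraries held identical values.

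Tests were run on log2(FPKM + 1), which understates fold changes of low genes, for the 12061 genes whose mean reached 0.5 FPKM. All 8 libraries entered 1 limma fit (limma 3.58.1 in R 4.3.3) of the group means with a trended prior, and two-sided p-values were adjusted by Benjamini-Hochberg over all genes, with a threshold of 0.05. Correlations used exact permutation over pairings (SciPy 1.17.1). The fit was also run on simulated data with independent noise for each gene and library. Such data lack the shared differences between these libraries, so that run cannot show how the fit behaves with them. The named genes are the members, for 2 differences the 2 genes of smallest p in each of 5 pathway lists, and the 5 genes most like Hspa5; 1 further gene of the rule is not reported here. Members, lists and tests were chosen with earlier results of these data known. Other settings tried were pseudocounts of 0.1 and 5, all genes or only those whose mean reached 5 FPKM, quantile normalization, median-ratio scaling, library weights, robust moderation, the 2 groups alone and each library left out. Library weights used limma's gene-by-gene method because the default did not converge. The library-number term set the higher-numbered against the lower-numbered libraries and did not use the numbers as values. That term and the removal of GC and length trends by loess (values for 92.7% of tested genes) were added after seeing the data.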

Additional observations from a re-analysis of the deposited data

How the results depend on the processing

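Between KO_LPS and WT_LPS, 10 genes were called, against 5 with no filter, 2 with a filter at a mean of 5 FPKM, 2727 with library weights, 0 with the 2 groups alone, 33 with the library-number term and 0 to 161 with a library left out (161 without replicate 3 of KO_LPS). Members called were 0, and 2 with library weights, in which replicate 3 of WT_LPS had a weight of 10.1 and the others 0.246 to 1.4. Differences that changed sign were those of Hspa5 (0.046 with median-ratio scaling, 0.024 with GC and length trends removed, 0.248 with the number term), Ddit3 (0.334) and Herpud1 (0.224) with library weights, and Hsp90b1 (0.034) and Calr (0.001) with the number term. With a library left out they ran from -0.028 to 0.349 for Atf4, -0.238 to 0.022 for Calr, -0.333 to 0.252 for Ddit3, -0.283 to 0.124 for Herpud1, -0.388 to 0.06 for Hsp90b1, -0.37 to 0.346 for Hspa5 and -0.492 to 0.056 for Sdf2l1.

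Between WT_LPS and WT_PBS, 0 genes were called, and 0 to 2 with a library left out. Calr was at 0.006 with median-ratio scaling, Ddit3 at -0.165, Atf4 at -0.075 and Cebpb at -0.079 with library weights, and Dnajb9 and Ssr3 at 0.006 with trends removed. With a library left out the ranges were -0.109 to 0.194 for Atf4, -0.256 to 0.12 for Calr, -0.147 to 0.45 for Ddit3, -0.879 to 0.097 for Hspa5, -0.829 to 0.328 for Pdia4, -0.555 to 0.309 for Sdf2l1 and -0.824 to 0.046 for Xbp1. Between KO_LPS and WT_PBS, 6 genes were called, against 0 with no filter, 3 with the stricter filter, 3 with median-ratio scaling, 10 with quantile normalization, 73 with library weights, 0 with the 2 groups alone, 59 with the number term (1 member) and 0 to 125 with a library left out. Dnajb9 was at 0.071, 0.13 and 0.09 with median-ratio scaling, quantile normalization and trends removed. With a library left out the ranges were -0.371 to 0.005 for Calr, -0.138 to 0.35 for Ddit3, -0.909 to 0.067 for Hspa5 and -0.797 to 0.067 for Sdf2l1.

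By library number, Ddit3 was at -0.034 and -0.078 and Dnajb9 at -0.052 and -0.137 with median-ratio scaling and quantile normalization, Dnajb9 at -0.075 with trends removed, and Atf4 at 0.013 with quantile normalization. With a library left out Atf4 ran from -0.214 to 0.25 and Ddit3 from -0.084 to 0.416, the calls over all genes were 670 to 3021 (670 without replicate 3 of KO_LPS) against 3404, and 5 to 7 members were called. Relations with Hspa5 past the threshold were 7, against 5 with median-ratio scaling, 5 with quantile normalization, 3 with trends removed and 3 to 7 with a library left out. Dnajb9 had an r of -0.37 with quantile normalization and -0.011 with trends removed, and Atf4 of -0.062 to 0.536 with a library left out. The cause of these changes was not tested.

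No paired analysis was possible because the labels give the groups no shared replicate numbers. Groups of 2 and 3 leave intervals that hold differences of 2-fold for several members, the depth in reads is unknown, and the meaning of the library numbers is not given in the labels.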
